A study of Mus musculus with 8 samples.

Results

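The 10 genes described here are regulators of mitochondrial biogenesis and uncoupling proteins, chosen by name and found among the 31053 genes of the count table through their Ensembl identifiers in the GRCm38 annotation. They are *Ppargc1a*, *Ppargc1b*, *Esrra*, *Nrf1*, *Gabpa*, *Tfam*, *Prdm16*, *Ucp1*, *Ucp2* and *Ucp3*. Their RNA was measured by sequencing of visceral white adipose tissue (vWAT), labelled as the epididymal depot, of 4 KIKO and 4 WT male mice aged 8 months, with 1 library per mouse. KIKO mice carry a knock-in and a knock-out allele of the same gene, in all cells and from conception, and WT mice were C57BL/6 littermates. No treatment is named in the sample labels for either genotype, and all mice carry the strain label C57BL/6. Whole tissue was used, so adipocytes, vascular, stromal and immune cells were measured together, and fewer cells of a type and less RNA per cell cannot be told apart.

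Mitochondrial biogenesis is driven by the coactivators PGC-1alpha (*Ppargc1a*) and PGC-1beta (*Ppargc1b*), which bind transcription factors such as ERRalpha (*Esrra*), NRF1 (*Nrf1*) and the DNA-binding subunit of GABP (*Gabpa*). These factors act on nuclear genes of the respiratory chain and on *Tfam*, whose product packages mitochondrial DNA and starts its transcription. PRDM16 (*Prdm16*) is a determinant of brown and beige adipocytes, which burn fat through UCP1, a proton channel of the inner mitochondrial membrane. UCP2 and UCP3 are carriers of the same family. *Ucp2* is expressed in many tissues and strongly in immune cells, whereas *Ucp3* is known mainly from skeletal muscle and brown fat.

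Counts of whole genes were compared with edgeR's quasi-likelihood test, and levels are given as CPM, counts scaled to a common library total with edgeR's TMM factors. The libraries held 2602189 to 3478539 counts in KIKO and 2936515 to 3119146 counts in WT mice. Of 11080 genes that passed edgeR's filter on low counts, 31 were higher and 44 lower in KIKO mice at a Benjamini-Hochberg adjusted p under 0.05, which is 0.677% of those tested. In a principal component analysis, WT mouse 3 scored -12.6 on component 1, inside the KIKO range of -24.0 to -4.04, and the other WT mice scored 8.43 to 38.6, and calls gained or lost without it are given beside the results. Without it, 654 of 11261 genes passed (5.81%), 285 of them higher (2.53%) and 369 lower (3.28%). Leaving out any other mouse gave 0 to 48 genes. WT mouse 3 was singled out from these same data, and leaving out a WT mouse that lies among the KIKO mice favours larger differences. Genes said to rise or fall without it passed in that fit alone or with few others, and are no independent support. DESeq2 called 284 of 5941 genes (4.78%). Log2 fold changes fell with transcript length over genes (Spearman's rho -0.282, across genes, which are not replicates). Within a library, levels relative to the mean of all mice rose with length in WT mice 1, 2 and 4 (rho 0.110 to 0.262). They fell with length in WT mouse 3 (rho -0.110) and in all KIKO mice (rho -0.214 to -0.0843). This trend ran with genotype apart from WT mouse 3, and the 2 cannot be told apart. Mitochondrially encoded genes took 6.91% of counts in WT mouse 1 and 9.15% to 10.7% in the other mice. *Adipoq*, a defining gene of adipocytes, had 5868 to 6919 CPM in KIKO and 3702 to 5364 CPM in WT mice (log2 difference 0.54, adjusted p = 0.102 from edgeR), and passed without WT mouse 3 and in DESeq2. By RT-qPCR the paper reports the opposite direction, with lower *Adipoq* mRNA in KIKO mice. Of 16 adipocyte markers, 8 lay above 0 and 8 below, with a median log2 fold change of 0.01 and none that passed.

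The promoters of *Ucp3*, *Ppargc1a* and *Ucp2*, whose levels ran together or in opposite directions from mouse to mouse, and that of *Tfam*, a known target of GABP, are shown because several of the regulators act through short DNA motifs. RefSeq windows of 250 bases before to 50 bases after the start (GRCm38.p6) matched 9 of the 10 genes. The 250 bases before the start are printed 5′ to 3′, with capitals for AGGTCA (the core of many nuclear receptor sites), TGACGT (part of the cAMP response element) or CCGGAAGT (an ETS family motif that GABP can bind), searched on both strands.
Ucp3, chr7:100472741-100472990, plus strand: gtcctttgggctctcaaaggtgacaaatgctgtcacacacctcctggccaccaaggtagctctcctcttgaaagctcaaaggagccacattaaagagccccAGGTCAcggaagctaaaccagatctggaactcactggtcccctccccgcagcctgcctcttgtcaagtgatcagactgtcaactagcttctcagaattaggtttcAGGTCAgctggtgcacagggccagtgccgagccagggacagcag
Ppargc1a, chr5:51567726-51567975, minus strand: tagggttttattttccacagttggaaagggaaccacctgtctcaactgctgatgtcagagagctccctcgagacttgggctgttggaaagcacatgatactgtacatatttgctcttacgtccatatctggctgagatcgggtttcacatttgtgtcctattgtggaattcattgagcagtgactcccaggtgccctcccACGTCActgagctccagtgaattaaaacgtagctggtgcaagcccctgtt
Ucp2, chr7:100493108-100493357, plus strand: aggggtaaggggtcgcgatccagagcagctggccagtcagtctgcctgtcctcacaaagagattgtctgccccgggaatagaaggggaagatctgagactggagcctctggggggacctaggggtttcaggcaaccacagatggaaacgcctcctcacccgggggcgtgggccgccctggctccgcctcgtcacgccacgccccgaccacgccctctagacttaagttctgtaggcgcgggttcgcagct
Tfam, chr10:71238045-71238294, minus strand: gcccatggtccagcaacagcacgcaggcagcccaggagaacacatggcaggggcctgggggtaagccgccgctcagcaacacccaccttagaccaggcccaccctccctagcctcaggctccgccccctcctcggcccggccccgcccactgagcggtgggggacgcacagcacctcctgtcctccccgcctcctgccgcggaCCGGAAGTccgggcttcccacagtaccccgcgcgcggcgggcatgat
*Ucp3* held AGGTCA at 2 places, *Ppargc1a* held TGACGT, printed as its reverse complement, and *Tfam* held CCGGAAGT. *Ucp1* held AGGTCA and is not printed. The 250 bases of *Ucp2* held none of the motifs. The 250 bases had a GC content of 54.8% for *Ucp3*, 48.0% for *Ppargc1a*, 63.6% for *Ucp2* and 72.0% for *Tfam*, against a median of 52.4% over all windows.
Across 32851 windows of 300 bases, 16.3% held AGGTCA, 7.51% TGACGT and 3.89% CCGGAAGT. The palindromic NRF1 motif was in 4.603% and TCAAGGTCA of the ERR family, which contains AGGTCA, in 0.423%, and neither was in a window of the 9 genes. AGGTCA and TGACGT were added after the sequences had been seen, and a match is a description and not a site.
Between the genotypes, tested genes with each motif had medians near that of all genes. The 1050 with the NRF1 motif had a median log2 fold change of KIKO over WT of 0.01 with 1 gene higher and 1 lower (0.19%). The 825 with CCGGAAGT had a median of -0.00329 with 2 higher and 3 lower (0.606%). The 26 with TCAAGGTCA had a median of 0.06 with none higher and 1 lower (3.85%, from 1 gene). Of all tested genes, 0.677% passed. The median over all 8728 tested genes with a window was -0.00912.

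No difference between KIKO and WT mice passed the test in any of the 9 genes that could be tested, and *Ucp1* had too few counts. Of the 9 genes that passed the filter on low counts, none reached an adjusted p under 0.05 in edgeR (0.677% of all tested genes did). Only *Nrf1* had an unadjusted p under 0.05 (1 of 9, against 16.2% of all tested genes), and DESeq2 and limma-voom gave none of them an unadjusted p under 0.05. In none of the 9 genes did the genotypes separate completely, as they did in 8.45% of all tested genes. Of the 9 fold changes, 5 were above 0 and 4 below, with a median log2 value of 0.01 against -0.01 over all tested genes. None of these 9 genes passed in any of the 20 alternative analyses, which include leaving out each mouse, but in DESeq2 only 1 of the 10 genes was given an adjusted p.

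**Figure D1:**
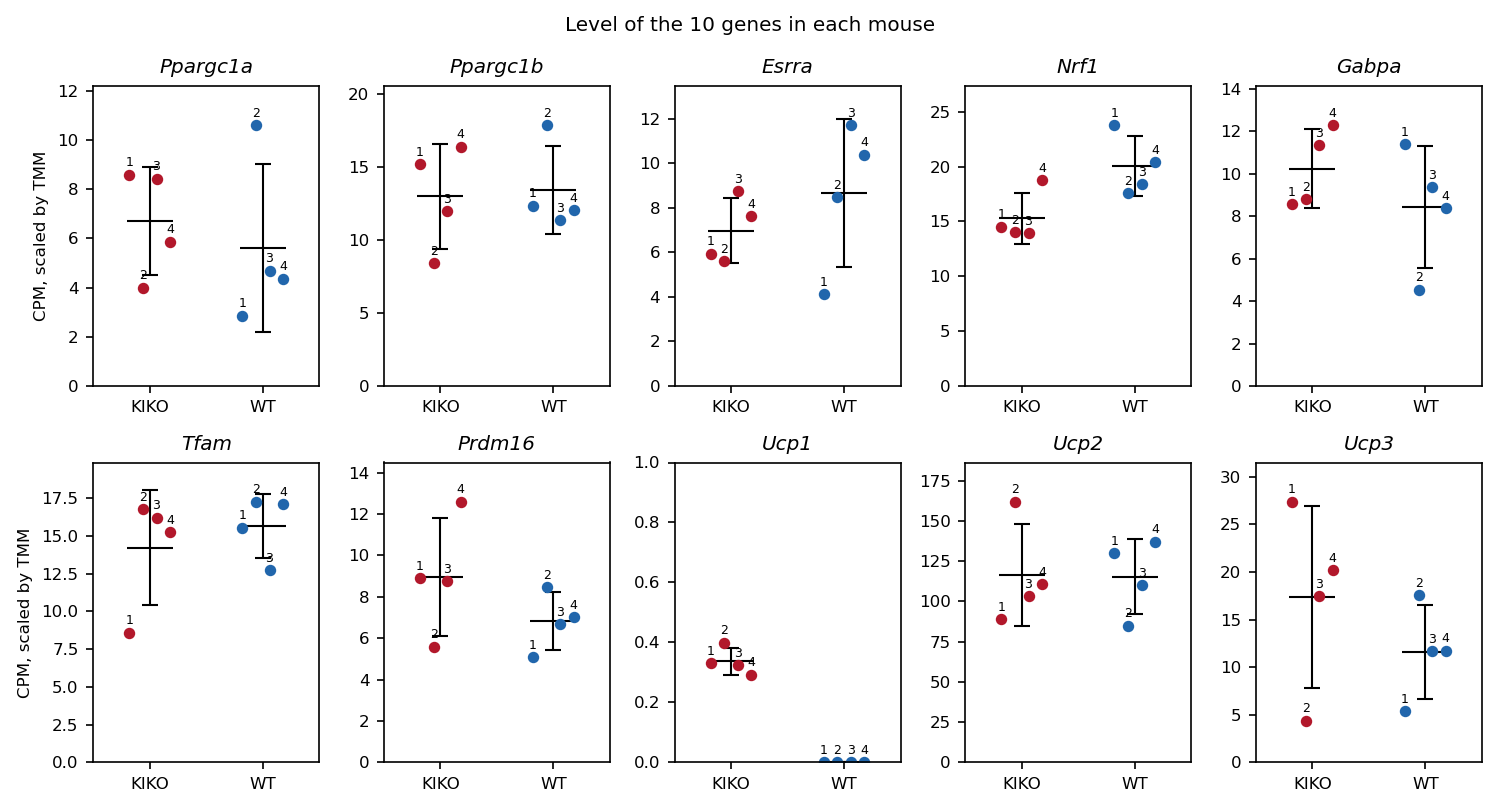
CPM scaled by TMM (vertical axes, each starting at 0 and with its own scale) of the 10 genes in 4 KIKO and 4 WT mice. Dots are mice, labelled 1 to 4 within a genotype, and bars give the mean and SD. The genotypes overlap in every gene apart from *Ucp1*, which had 1 count in each KIKO mouse and 0 in each WT mouse.

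The coactivator gene *Ppargc1a* (chromosome 5 of GRCm38 from 51454250 to 51567726) had 8.58, 4.00, 8.42 and 5.86 CPM in KIKO mice 1 to 4, and 2.85, 10.6, 4.69 and 4.35 CPM in WT mice 1 to 4. WT mouse 2 was the highest and WT mouse 1 the lowest of all 8 mice, so the WT range enclosed the KIKO range. The log2 fold change of KIKO over WT was 0.25 (standard error, SE, 0.38, 95% interval -0.55 to 1.06, adjusted p = 0.785 from edgeR), and it ranged from 0.03 without WT mouse 1 to 0.77 without WT mouse 2. Its biological coefficient of variation, the spread between mice of a genotype beyond counting error, was 0.303 and exceeded that of 97.7% of tested genes. At 9 to 35 counts per library, a 2-fold rise lies inside the interval and a 2-fold fall does not.
*Ppargc1b* (chromosome 18) had 15.2, 8.39, 11.99 and 16.4 CPM in KIKO mice, and 12.4, 17.9, 11.4 and 12.1 CPM in WT mice. KIKO mouse 2 was again low and WT mouse 2 again high. The log2 fold change was -0.04 (SE 0.23, 95% interval -0.53 to 0.46, adjusted p = 0.958 from edgeR).

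*Nrf1* (chromosome 6 from 30047988 to 30153458) came closest to a difference. This factor, which is not the NFE2-like factor of a similar name, had 14.5, 14.0, 13.9 and 18.8 CPM in KIKO mice and 23.8, 17.6, 18.4 and 20.4 CPM in WT mice. Of the KIKO mice only mouse 4 reached into the WT range. The log2 fold change was -0.38 (SE 0.18, 95% interval -0.76 to -0.00180, unadjusted p = 0.0490, adjusted p = 0.306 from edgeR), with an adjusted p of 0.208 to 0.585 over the alternatives. By 2-sided exact permutation of the genotypes (70 assignments), its mean CPM gave p = 0.0857, where the smallest possible value is 0.0286.
*Gabpa* (chromosome 16) had 8.58, 8.79, 11.3 and 12.3 CPM in KIKO mice and 11.4, 4.54, 9.37 and 8.37 CPM in WT mice. WT mouse 2 was the lowest of all mice, and the remaining values of the genotypes were intermixed (log2 fold change 0.30, SE 0.27, 95% interval -0.28 to 0.87, adjusted p = 0.632 from edgeR). Without WT mouse 2 the value was 0.08, and without WT mouse 1 it was 0.48.
*Esrra* (chromosome 19) had 5.94, 5.60, 8.75 and 7.62 CPM in KIKO mice and 4.12, 8.48, 11.7 and 10.4 CPM in WT mice. WT mouse 1 lay below all KIKO mice and WT mice 3 and 4 above all of them (log2 fold change -0.30, SE 0.30, 95% interval -0.94 to 0.35, adjusted p = 0.670 from edgeR). Without WT mouse 3 the value was -0.12, and without WT mouse 1 it was -0.53.
*Tfam* (chromosome 10) had 8.58, 16.8, 16.2 and 15.2 CPM in KIKO mice and 15.5, 17.3, 12.7 and 17.1 CPM in WT mice. Only KIKO mouse 1 stood below the other 7 mice (log2 fold change -0.15, SE 0.22, 95% interval -0.61 to 0.32, adjusted p = 0.789 from edgeR), and without it the value was 0.04.
The exons of *Gabpa* overlap those of *Atp5j*, an ATP synthase subunit gene on the opposite strand, and those of *Esrra* overlap *Trmt112*. It is not stated whether the counting used strand, so reads of the shared stretches cannot be assigned with certainty. *Atp5j* had a log2 fold change of 0.27 (SE 0.17) and *Trmt112* of 0.42 (SE 0.15).

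**Figure D2:**
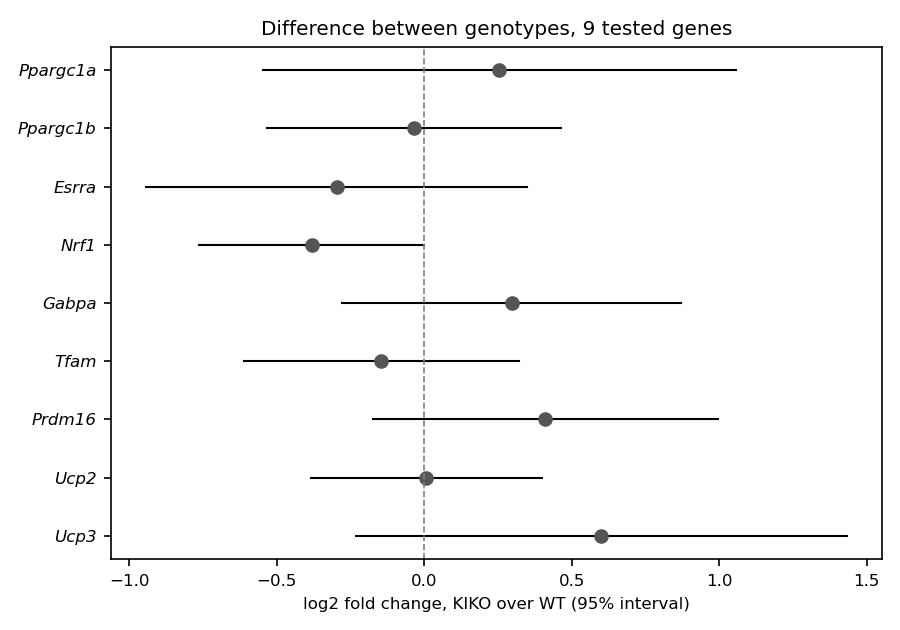
Log2 fold change of KIKO over WT with its 95% interval from edgeR for the 9 tested genes (vertical axis: genes, horizontal axis: log2 fold change). The intervals of all genes but *Nrf1* include 0, and that of *Nrf1* ends at -0.00180 before adjustment over all tested genes.

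*Prdm16* (chromosome 4) had 8.91, 5.60, 8.75 and 12.6 CPM in KIKO mice and 5.07, 8.48, 6.69 and 7.03 CPM in WT mice. KIKO mice 1, 3 and 4 lay above all WT mice and KIKO mouse 2 lay below all WT mice but mouse 1. The log2 fold change was 0.41 (SE 0.27, 95% interval -0.17 to 0.99, adjusted p = 0.490 from edgeR), and without KIKO mouse 4 it was 0.20.
*Ucp1* (chromosome 8) was close to absent, with 1 count in each of the 4 KIKO libraries and no count in any WT library. This amounts to 0.293 to 0.400 CPM in KIKO mice, and a count of 0 in a WT library still allows up to 3 counts there. No fold is given, since both genotypes lie under that limit. A 2-sided exact permutation of its CPM gave its smallest possible p of 0.0286 over 70 assignments, but among genes with a count that did not pass the filter, 0.827% had all KIKO mice above all WT mice and 1.38% had all of them below. Of 324 genes with exactly 4 counts in all, 2 (0.617%) showed the pattern of *Ucp1* and none (0.0%) its mirror image. When genes with few counts were left in, edgeR gave *Ucp1* an adjusted p of 0.384.
Other defining genes of brown adipocytes, looked up from a marker list, were measured too. *Zic1* had no count in any mouse. *Dio2*, the deiodinase of brown fat, had 7, 0, 1 and 3 counts in KIKO and 1, 4, 0 and 0 counts in WT mice. *Elovl3*, a fatty acid elongase of brown fat, had 18, 1, 0 and 5 counts in KIKO and 0, 0, 1 and 0 counts in WT mice. *Cidea*, a lipid droplet protein, had 116 and 45.4 CPM in KIKO mice 1 and 4, 14.0 and 11.7 CPM in KIKO mice 2 and 3, and 9.51 to 18.4 CPM in WT mice. KIKO mouse 1 was the highest of all mice in *Dio2*, *Elovl3* and *Cidea*. The log2 fold change of *Cidea* of 1.82 (SE 0.55, adjusted p = 0.122 from edgeR) did not pass, and without KIKO mouse 1 it was 0.86. *Cox8b* was highest in KIKO mouse 2 (31.2 CPM), and *Cox7a1* was lowest in KIKO mouse 1 (7.59 CPM) with a log2 fold change of -0.30. Both encode subunits of cytochrome c oxidase.
Of the 10 brown adipocyte markers, 4 passed the filter on low counts, and 2 of these lay above 0 and 2 below, with none that passed the test. Their summed level was 121 to 228 CPM in KIKO and 140 to 210 CPM in WT mice.

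*Ucp2* (chromosome 7 from 100493337 to 100502020) had 89.1, 162, 103 and 111 CPM in KIKO mice and 130, 84.8, 110 and 137 CPM in WT mice. The lowest mouse was WT and the highest KIKO, and the other mice of both genotypes were intermixed. With a log2 fold change of 0.01 (SE 0.18, 95% interval -0.38 to 0.40, adjusted p = 0.990 from edgeR), a difference of 1.5-fold in either direction lies outside the interval. Its exons overlap *Dnajb13* on the opposite strand, which had 7 to 25 counts per library against 270 to 409 of *Ucp2*.
Macrophages are known to express *Ucp2*, and their markers had a summed level of 3239 to 4155 CPM in KIKO and 2924 to 3309 CPM in WT mice over 20 genes that all had counts. *Cd68* had a log2 fold change of 0.57 (adjusted p = 0.0836 from edgeR) and passed without WT mouse 3. *Lyz2*, a lysozyme gene of macrophages, was the 1 of 20 that rose (0.95, adjusted p = 0.0326 from edgeR), and its call was lost without any 1 of the KIKO mice or without WT mouse 2 or 4. Of the 20 markers, 17 lay above 0 (5433 of 11080 over all tested genes), and 0.28% of all tested genes rose. The part of these cells in the level of *Ucp2* was not tested.
*Ucp3* lies next to it on chromosome 7 (100472990 to 100486432) and had the highest biological coefficient of variation of the 9 tested genes. It had 27.4, 4.40, 17.5 and 20.2 CPM in KIKO mice and 5.39, 17.6, 11.7 and 11.7 CPM in WT mice. The highest and the lowest mouse were both KIKO. The 83 counts of KIKO mouse 1 (exact 95% Poisson interval 66.1 to 103) and the 11 of KIKO mouse 2 (5.49 to 19.7) differ beyond counting error, and the biological coefficient of variation of 0.367 exceeded that of 99.1% of tested genes. The log2 fold change was 0.60 (SE 0.39, 95% interval -0.23 to 1.43, adjusted p = 0.478 from edgeR) and 0.90 without KIKO mouse 2 (adjusted p = 0.162), but 0.31 without KIKO mouse 1 (adjusted p = 0.791) and 0.36 without WT mouse 1. A 2-fold rise lies inside the interval.
Skeletal muscle markers are given because *Ucp3* is a muscle gene. Their summed level was 89.8, 64.3, 27.9 and 62.1 CPM in KIKO mice 1 to 4, and 87.2, 33.0, 78.0 and 69.0 CPM in WT mice 1 to 4. KIKO mouse 1 was highest in both these markers and *Ucp3*, whereas WT mouse 1 was high in the markers and low in *Ucp3*, and WT mouse 2 the reverse. The part of muscle RNA in the level of *Ucp3* was not tested. The muscle creatine kinase *Ckm* had 0, 0, 1 and 0 counts in KIKO and 0, 0, 4 and 0 counts in WT mice.

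Several of these genes varied together from mouse to mouse. *Ucp3* was lowest in KIKO mouse 2 and WT mouse 1, where *Prdm16* and *Ppargc1a* were also at their lowest within each genotype, and *Ucp2* was high there. Over the 8 mice, *Ucp3* and *Prdm16* had a Pearson's r of 0.86 (p = 0.00528) and a Spearman's rho of 0.93 (p = 0.00223) in exact permutation tests over all orders of the mice, and r was 0.95 without the 2 mice farthest from the median of *Prdm16*. *Ucp3* and *Ppargc1a* had r = 0.82 (exact permutation p = 0.0141) and rho = 0.83 (p = 0.0154), with r = 0.82 without the 2 farthest mice. The mice left out were KIKO mouse 4 and WT mouse 1 for *Prdm16*, and WT mice 1 and 2 for *Ppargc1a*. KIKO mouse 2, the lowest in *Ucp3*, thus stayed in both, and no value was computed without both KIKO mouse 2 and WT mouse 1.
*Ucp2* ran against them. It had r = -0.85 (exact permutation p = 0.00925) and rho = -0.90 (p = 0.00456) with *Ppargc1a*. Without WT mice 1 and 2, the farthest in *Ppargc1a*, r was -0.86, with KIKO mouse 2, the highest in *Ucp2*, still included. With *Ucp3* it had r = -0.84 (exact permutation p = 0.00940) and rho = -0.71 (p = 0.0576), and r = -0.79 without the 2 farthest mice. With *Ppargc1b* it had r = -0.82 (exact permutation p = 0.0135) and rho = -0.57 (p = 0.151), but only -0.45 without KIKO mouse 2 and WT mouse 2, so that relation rests on these mice.
Of 36 pairs of the 9 genes, 7 had an absolute r over 0.7 and an unadjusted p under 0.05, all of them among *Ppargc1a*, *Ppargc1b*, *Prdm16*, *Ucp2* and *Ucp3*. None passed after adjustment over the 36 pairs (lowest Benjamini-Hochberg adjusted p = 0.101 for r and 0.0804 for rho, exact permutation tests). These 7 kept their sign within each genotype and reached at least 0.80 in absolute r with each genotype's mean removed. Without WT mouse 3 they reached at least 0.69. *Esrra*, *Nrf1*, *Gabpa* and *Tfam* took part in none of them, and *Nrf1* and *Ucp3* for instance had r = -0.27 (exact permutation p = 0.512).
All points share the depth and scaling of their library. Of all tested genes, 1.77% were related to *Ucp3* as closely as *Prdm16* was, in either direction, and 0.812% were related to *Ppargc1a* as closely as *Ucp2* was. Over the 7 pairs, taken from either gene, this share ranged from 0.686% to 6.50%. The lowest was that of genes as close to *Prdm16* as *Ucp3*, and the highest that of genes as close to *Prdm16* as *Ppargc1b*.

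**Figure D3:**
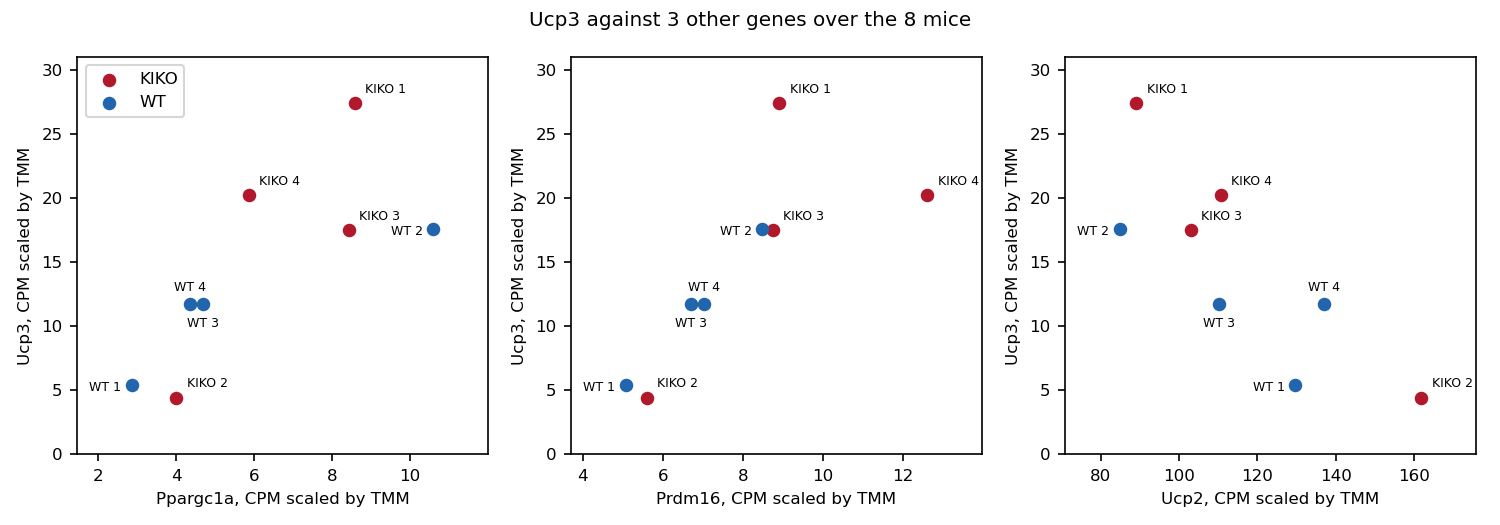
Level of *Ucp3* (vertical axes) against *Ppargc1a*, *Prdm16* and *Ucp2* (horizontal axes), all in CPM scaled by TMM, with 1 dot per KIKO or WT mouse. *Ucp3* rises with the first pair of genes and falls with *Ucp2*, with KIKO mouse 2 and WT mouse 1 at the low end of *Ucp3*.

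The cell markers of KIKO mouse 2 and WT mouse 1, the mice with the lowest *Ucp3*, are given beside this. The summed level of mesothelial markers was 546 CPM in KIKO mouse 2, against 281 to 454 CPM in the other KIKO mice, and 380 CPM in WT mouse 1, against 266 to 322 CPM in the other WT mice. Macrophage markers summed to 4155 CPM in KIKO mouse 2, the highest of all mice, and to 3309 CPM in WT mouse 1, the highest of the WT mice. Single macrophage genes did not all follow this sum. In WT mouse 1, *Cd68* (26.3 CPM) and *Lyz2* (226 CPM) were the lowest of all mice. The macrophage gene *Adgre1* had 10.8 CPM there, against 8.70 to 19.1 CPM in the other WT mice. In KIKO mouse 2, *Lyz2* was the highest of all mice (705 CPM) and *Adgre1* the lowest of the KIKO mice (18.8 CPM). Markers of T, B and NK cells were also highest in these mice within their genotypes, at 63.9 CPM in KIKO mouse 2 and 43.1 CPM in WT mouse 1. So were progenitor and fibroblast markers, at 4279 CPM in KIKO mouse 2 and 3408 CPM in WT mouse 1. Smooth muscle and pericyte markers were lowest in these mice within their genotypes, at 410 CPM in KIKO mouse 2 and 530 CPM in WT mouse 1. Adipocyte markers summed to 68040 CPM in KIKO mouse 2 and 57070 CPM in WT mouse 1, within the range of their genotypes. Neutrophil markers did not run with the other immune markers. They summed to 20.8 CPM in KIKO mouse 2, within the KIKO range of 14.5 to 23.0 CPM. In WT mouse 1 they summed to 10.5 CPM, the lowest of all mice. Endothelial markers went opposite ways, with 663 CPM in KIKO mouse 2, the lowest of all mice, and 1381 CPM in WT mouse 1, the highest. The part of these cells in the relations was not tested.
The genes whose levels over the 8 mice were most like that of a member were looked up among the 11079 other tested genes, as a description with no test. For *Ucp3* they were *Mtus1* (r = 0.98, rho = 0.95) and *Agpat4*, an acyltransferase of glycerophospholipid synthesis (r = 0.98, rho = 0.93). For *Ppargc1a* they were *Mif4gd* (r = 0.97, rho = 0.98) and the RNA-binding protein gene *Pum2* (r = 0.96, rho = 1.0). For *Prdm16* they were *Atp2a2*, a calcium pump of the endoplasmic reticulum (r = 0.97, rho = 0.95), and *Trim35* (r = 0.96, rho = 0.88). For *Ucp2* they were *Fbxl17* (r = 0.92, rho = 0.90) and *Fcgr2b*, an Fc receptor of macrophages and B cells (r = 0.91, rho = 0.83).
For *Esrra* the closest genes were *Dhcr7*, an enzyme of cholesterol synthesis (r = 0.9966, rho = 1.0), and *Ubqln4* (r = 0.96, rho = 0.95). For *Tfam* they were *Clcn4* and *Uckl1*, for *Nrf1* they included *Ip6k2*, for *Gabpa* *Ppib* and *2310057M21Rik*, and for *Ppargc1b* *Lsm1* and *Drd1*, with r of 0.94 to 0.98.

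Genes around these regulators were described from lists. Of 39 tested partners and upstream regulators of PGC-1, none passed the test in edgeR (4 at an unadjusted p under 0.05), and 24 had a fold change below 0. The smallest p values were those of *Rb1*, a repressor of the cell cycle, with 31.02 ± 1.68 CPM in KIKO and 41.0 ± 4.01 CPM in WT mice (mean ± SD, n = 4 each; log2 fold change -0.40, adjusted p = 0.157 from edgeR), the coactivator gene *Ncoa2* (log2 fold change -0.46, adjusted p = 0.170 from edgeR) and *Cnot3* (-0.43, adjusted p = 0.212 from edgeR). Without WT mouse 3, *Rb1* and *Cnot3* fell (log2 fold change -0.47 with adjusted p = 0.0488, and -0.58 with adjusted p = 0.0204). In that fit 3.28% of all genes fell.
Of 30 tested genes of mitochondrial DNA maintenance and transcription, which act beside TFAM, none passed in edgeR (6 at an unadjusted p under 0.05). *Dna2*, a nuclease and helicase, had a log2 fold change of -0.98 (adjusted p = 0.207 from edgeR), *Lrpprc*, which stabilises mitochondrial mRNAs, had 0.49 (adjusted p = 0.208 from edgeR) and *Mgme1*, a mitochondrial exonuclease, had 0.55 (adjusted p = 0.221 from edgeR). Without WT mouse 3, *Lrpprc* rose (log2 fold change 0.71, adjusted p = 0.0191), as did 2.53% of all genes in that fit.
Of 11 tested protein genes of mitochondrial DNA, none passed in edgeR (1 at an unadjusted p under 0.05). *mt-Co1*, a subunit of complex IV, had 980.0 ± 24.3 CPM in KIKO and 808 ± 79.8 CPM in WT mice (mean ± SD, n = 4 each), for a log2 difference of 0.28 (adjusted p = 0.262 from edgeR). All KIKO lay above all WT mice, and the genotypes did not overlap in 8.45% of all tested genes. *mt-Nd4* had 0.34 (adjusted p = 0.450 from edgeR) and *mt-Atp6* 0.28 (adjusted p = 0.576 from edgeR). Without WT mouse 3 they had 0.56 (adjusted p = 0.0752) and 0.45 (adjusted p = 0.257). The median of the list was 0.14 and turned to -0.04, with 5 of 11 above 0, under an offset for length and GC of transcripts.
Of 54 tested genes reported as targets of PGC-1, NRF or ERR factors, none passed in edgeR (12 at an unadjusted p under 0.05), and 35 lay above 0 with a median log2 fold change of 0.12. On library totals alone 31 lay above 0 with a median of 0.05, and with the length and GC offset 33 did with a median of 0.07. *Slc25a5*, an ADP/ATP carrier, had 67.2 ± 14.2 CPM in KIKO and 39.8 ± 8.43 CPM in WT mice (mean ± SD, n = 4 each), for a log2 difference of 0.76 (SE 0.18, adjusted p = 0.0676 from edgeR). *Gpx1*, a glutathione peroxidase, had 0.61 (adjusted p = 0.126 from edgeR) and *Cs*, the citrate synthase, had 0.32 (adjusted p = 0.167 from edgeR). Without WT mouse 3, 6 of the 54 rose (2.53% of all genes did in that fit): *Slc25a5*, *Sdhb*, *Uqcrb*, *Suclg1*, *Acadvl* and *Prdx5* (log2 fold change 0.44 to 0.78). DESeq2 called *Slc25a5* and *Gpx1*, 2 of the list, and 4.78% of all genes that it gave an adjusted p.
Nuclear genes of the respiratory chain and of the mitochondrial ribosome, given beside these targets, had 67 of 77 and 57 of 74 tested genes above 0 (5433 of 11080 over all genes), with medians of 0.19 and 0.12 and none that passed (14 and 10 at an unadjusted p under 0.05). With that offset the first median was 0.07 with 56 genes above 0, and on library totals alone the second was 0.06 with 41 above 0.

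Of 32 tested genes of brown and beige adipocytes, none was higher and 2 were lower in KIKO mice (0.397% of all tested genes were), and 30 did not pass. An unadjusted p under 0.05 was found for 9 of the 32, against 16.2% of all tested genes. The genes that fell are regulators of transcription. *Irf4*, which is also a factor of lymphocytes and macrophages, had 9.31 ± 3.69 CPM in KIKO and 34.5 ± 23.8 CPM in WT mice (mean ± SD, n = 4 each), for a log2 difference of -1.90 (SE 0.39, adjusted p = 0.0442 from edgeR). *Zbtb16*, which encodes the zinc finger protein PLZF, had 113 ± 50.1 CPM in KIKO and 294 ± 124 CPM in WT mice (mean ± SD, n = 4 each), for a log2 difference of -1.38 (SE 0.29, adjusted p = 0.0453 from edgeR). *Irf4* did not overlap between the genotypes, as was so for 8.45% of all tested genes, and *Zbtb16* did. The call of *Irf4* was lost without any 1 of the KIKO mice or WT mouse 2 or 4, and that of *Zbtb16* without KIKO mouse 1, 3 or 4 or WT mouse 1, 2 or 4. Both were also lost with the length and GC offset and in limma-voom, with log2 fold changes of -2.12 to -1.30 for *Irf4* and -1.72 to -1.08 for *Zbtb16* over all alternatives. *Cd81*, a surface protein of beige progenitors, had 0.39 (adjusted p = 0.114 from edgeR) and rose without WT mouse 3 (0.43, adjusted p = 0.0430).
Of 27 tested mitochondrial carriers other than the uncoupling proteins, none passed in edgeR (4 at an unadjusted p under 0.05), and 20 lay above 0 with a median log2 fold change of 0.15 (18 and 0.08 on library totals alone). Besides *Slc25a5*, the smallest p values were those of *Slc25a40* (-0.66, adjusted p = 0.0959 from edgeR) and *Slc25a12*, an aspartate/glutamate carrier (0.56, adjusted p = 0.153 from edgeR).
Of 37 tested genes of mitochondrial dynamics and mitophagy, none passed in edgeR (8 at an unadjusted p under 0.05). *Samm50*, of the sorting machinery of the outer membrane, had a log2 fold change of 0.48 (adjusted p = 0.0959 from edgeR) and the autophagy gene *Map1lc3b* had 0.44 (adjusted p = 0.153). Without WT mouse 3, *Map1lc3b*, *Phb2* and *Letm1* rose (log2 fold change 0.44 to 0.67), and 2.53% of all genes rose in that fit. DESeq2 called 1 gene of the list, *Samm50*, and 4.78% of all genes that it gave an adjusted p.
Of 12 tested genes of fatty acid handling that are known to accompany *Ucp3* in muscle or fat, none passed in edgeR (4 at an unadjusted p under 0.05). *Txnip* had a log2 fold change of -0.72 (adjusted p = 0.110 from edgeR), *Acsl1*, an acyl-CoA synthetase, had -0.50 (adjusted p = 0.157) and the fatty acid transporter *Cd36* had -0.27 (adjusted p = 0.279). *Txnip* fell without WT mouse 3 (-0.85, adjusted p = 0.0234), where 3.28% of all genes fell, and in DESeq2, where 4.78% were called in either direction.

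**Figure D4:**
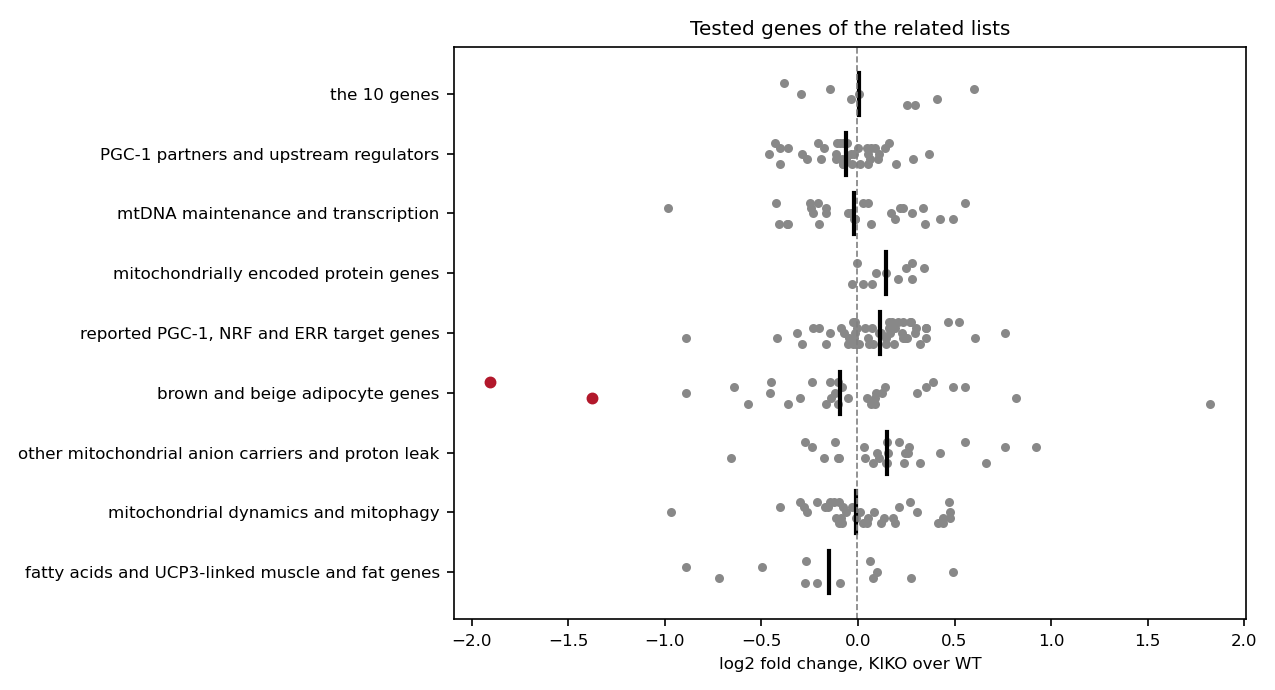
Log2 fold change of KIKO over WT (horizontal axis) of the tested genes of each list (vertical axis). Dots are genes, red where the adjusted p was under 0.05, black bars are list medians and the broken line is the median of all tested genes. Of the genes shown, only *Irf4* and *Zbtb16* passed, both lower in KIKO mice.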

How the data were processed

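RNA of vWAT of 4 KIKO and 4 WT mice was sequenced, with 1 library per mouse. The authors trimmed reads with Trimmomatic, aligned them to GRCm38 with HISAT2 and deposited raw counts per Ensembl gene, made with StringTie by the paper's methods. The release of the gene annotation is not given in the sources used here, and the paper and the labels differ on library kit and instrument. A second table deposited by the authors holds log2 values of library-scaled counts with 1 added, and served only in the limma-trend alternatives. GENCODE M21 gave symbols to 30934 of 31053 genes.

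Counts were tested in R 4.3.3 with edgeR 4.0.16 (TMM, filterByExpr by genotype, quasi-likelihood test, older estimator, Benjamini-Hochberg adjustment over 11080 genes), and log2 CPM used a prior count of 2. Each SE was derived from the quasi-likelihood F value, and intervals are 95%. Poisson intervals and limits for a count of 0 cover counting error only. The alternatives were other scalings and filters, edgeR's newer estimator, the replicate number as a block, DESeq2 1.42.0, limma 3.58.1 (voom, and trend with pseudocounts of 1 and 8), a trend on transcript length and GC content (mgcv 1.9.3), and leaving out each mouse. In a test on simulated counts of 10932 genes, 76.8% of the 2-fold changes and 31% of the 1.5-fold changes were called, with 1 false call among 108. These counts took their spread from the trend over all tested genes, so the shares do not give the power for the 10 genes. The biological coefficient of variation was 0.367 for *Ucp3* (trend 0.172) and 0.303 for *Ppargc1a* (trend 0.212). *Nrf1*, *Tfam* and *Prdm16* lay below the trend and the other tested genes of the 10 above it. P-values measure the spread between these mice. Read numbers per mouse limit precision, and no pair of libraries of a genotype was a duplicate by a chi-square comparison of counts.

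The genes and lists were chosen with earlier results of these data known. Named genes are the 10 genes, the genes of each list that passed or else the 3 with the smallest p, and the 2 genes most like each of the 9 tested genes, and some genes that this rule names are not reported here. Marker genes and genes named for a result without WT mouse 3 were named after their values were seen.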

Additional observations from a re-analysis of the deposited data

Results flagged for a closer look

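In 2 of 19 groups of 4 mice examined (*Ucp1* had no spread in WT mice), 1 mouse stood apart from the other 3 by more than the limit of Dixon's test. *Nrf1* was highest in KIKO mouse 4, with 18.75 CPM against 13.9 to 14.5 CPM in the other KIKO mice. *Ppargc1b* was highest in WT mouse 2, with 17.87 CPM against 11.4 to 12.4 CPM in the other WT mice. Chance alone marks about 1 in 20 groups.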

How the results depend on the processing

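None of the 9 tested genes passed under any of the 20 alternatives (in DESeq2 only *Ucp2* was given an adjusted p), and *Ucp1*, tested with an adjusted p only without the filter on low counts, did not pass there. The sign of *Ppargc1a*, *Esrra*, *Nrf1*, *Gabpa*, *Prdm16* and *Ucp3* held in all 20 alternatives. *Ucp2* turned to -0.0632 on library totals alone, to -0.00828 with the replicate number as a block and to -0.00630 in limma-voom, and ranged from -0.19 to 0.12 when 1 mouse was left out. *Ppargc1b* ranged from -0.17 to 0.14 and *Tfam* from -0.23 to 0.0350 when 1 mouse was left out. *Nrf1* fell short of an unadjusted p under 0.05 with RLE scaling, among others. Over all genes, 75 passed with the settings used, against 382 with no filter on low counts, 284 in DESeq2, 45 in limma-trend with a pseudocount of 1, 40 in limma-voom, 32 after the length and GC correction and 0 with the replicate block (1427 at an unadjusted p under 0.05). Leaving out 1 mouse gave 0 (KIKO mouse 4, WT mouse 2 or WT mouse 4, with 1328, 1344 and 1533 at an unadjusted p under 0.05 in edgeR) to 654 genes (WT mouse 3). Mice that share a replicate number did not deviate together (correlations of -0.152 to 0.0285, with 1 of 4 KIKO mice closest to the WT mouse of its number). These values give no sign that the numbers pair the mice, but 4 pairs cannot exclude it. Counts of 9 to 83 per library in 8 of the 9 tested genes (*Ucp2* has more) limit the size of change that could be detected.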
